A study of Mus musculus with 16 samples.

Results

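Type I interferon response genes were described across mouse liver libraries as a set of 34 genes chosen by name. This set and the other gene lists were chosen with earlier results of these data known. Counts of calls set beside shares of all genes therefore describe the lists and test nothing about them. By role they were the regulators Irf1, Irf7, Irf9, Stat2 and Usp18, the nucleic acid sensors Ifih1, Ddx58, Dhx58 and Zbp1, and the Ifit genes Ifit1, Ifit2, Ifit3 and Ifit3b. The Oas genes were Oas1a, Oas2, Oas3, Oasl1 and Oasl2, and the antiviral effectors were Rsad2, Cmpk2, Mx1, Mx2, Bst2 and Trim30a. Genes of ubiquitin-like and ADP-ribose modification were Isg15, Herc6, Parp9, Parp14 and Dtx3l, and the remaining interferon-induced genes were Ifi27, Ifi35, Ifi44, Rtp4 and Xaf1. All 34 were among the 24411 gene symbols of the count tables, and all 34 passed the low-count filter that left 12901 genes for testing.

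Polyadenylated liver RNA was sequenced in 4 groups of 4 libraries. EtOH+MBV mice had an ethanol diet modelled on the NIAAA scheme of chronic drinking followed by a binge, and received MBV, the small matrix-bound nanovesicles of the extracellular matrix. EtOH mice had the same diet with vehicle, PF+MBV mice received MBV and a control diet by pair-feeding, and PF mice received vehicle and the control diet. The strain, sex and age of the mice and the source and dose of the MBV were not given here, nor is it said that the repeats of a group are separate mice, so p-values measure the spread between these libraries. The libraries held 15271344 to 20493181 counts in genes. Hepatocyte markers such as Alb summed to 88913 to 145326 CPM (counts relative to library size) over the libraries. The library EtOH 1 had the lowest sum, 88913 CPM, and the other EtOH libraries had 109470 to 145326 CPM. The lowest sums of the other groups were 123871 CPM in EtOH+MBV, 97624 CPM in PF+MBV and 101754 CPM in PF.

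Type I interferons are secreted when cells sense foreign or misplaced nucleic acid. They bind a receptor made of Ifnar1 and Ifnar2, whose kinases Jak1 and Tyk2 phosphorylate Stat proteins, Stat2 among them. With Irf9 these form the complex ISGF3, which binds the interferon-stimulated response element in the promoters of many interferon-stimulated genes. In the liver, Kupffer cells, other leukocytes and hepatocytes all carry the receptor and can respond.

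Promoter windows of 6 of the genes, picked by hand, are shown as examples that hold, or lack, letters of that element. Each runs from 250 bases before to 50 bases after a transcript start in RefSeq, build GRCm38.p6, and is printed in the direction of transcription. Capitals mark every match, on either strand, to GAAA-NN-GAAA, the repeated core of the element with any base at N, or, in Irf1, to TTCNNNGAA, the core of the interferon gamma-activated site.
Isg15 (chr4:156200769-156201068, minus strand): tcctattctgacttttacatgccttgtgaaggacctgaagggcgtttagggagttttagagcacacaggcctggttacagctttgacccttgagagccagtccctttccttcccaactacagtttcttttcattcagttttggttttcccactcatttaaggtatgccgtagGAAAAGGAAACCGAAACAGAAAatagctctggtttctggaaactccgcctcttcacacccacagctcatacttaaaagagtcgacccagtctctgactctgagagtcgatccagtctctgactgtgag
Ifit3 (chr19:34583279-34583578, plus strand): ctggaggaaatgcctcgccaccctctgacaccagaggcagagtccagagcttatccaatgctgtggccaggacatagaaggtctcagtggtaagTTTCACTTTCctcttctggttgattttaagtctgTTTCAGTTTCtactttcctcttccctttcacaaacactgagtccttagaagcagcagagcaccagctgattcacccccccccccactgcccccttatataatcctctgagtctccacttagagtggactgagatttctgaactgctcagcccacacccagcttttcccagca
Ifit3b (chr19:34607707-34608006, plus strand): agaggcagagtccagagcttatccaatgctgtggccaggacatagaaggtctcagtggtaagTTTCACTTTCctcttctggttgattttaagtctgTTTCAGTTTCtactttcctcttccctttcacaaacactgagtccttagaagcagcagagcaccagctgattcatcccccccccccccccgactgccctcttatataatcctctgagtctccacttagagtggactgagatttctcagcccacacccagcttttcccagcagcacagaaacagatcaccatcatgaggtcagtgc
Rsad2 (chr12:26456403-26456702, minus strand): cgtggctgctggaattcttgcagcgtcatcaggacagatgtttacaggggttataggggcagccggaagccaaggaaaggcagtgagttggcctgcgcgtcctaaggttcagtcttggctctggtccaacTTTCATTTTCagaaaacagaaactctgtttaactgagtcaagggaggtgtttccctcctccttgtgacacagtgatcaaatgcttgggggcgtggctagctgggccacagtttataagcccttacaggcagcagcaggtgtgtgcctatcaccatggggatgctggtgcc
Dtx3l (chr16:35938978-35939277, minus strand): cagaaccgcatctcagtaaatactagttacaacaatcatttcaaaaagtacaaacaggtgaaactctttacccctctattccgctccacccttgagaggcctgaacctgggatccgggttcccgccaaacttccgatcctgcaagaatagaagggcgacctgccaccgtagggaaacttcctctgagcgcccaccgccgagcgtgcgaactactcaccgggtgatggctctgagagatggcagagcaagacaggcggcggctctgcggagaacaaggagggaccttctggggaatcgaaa
Irf1 (chr11:53769764-53770063, plus strand): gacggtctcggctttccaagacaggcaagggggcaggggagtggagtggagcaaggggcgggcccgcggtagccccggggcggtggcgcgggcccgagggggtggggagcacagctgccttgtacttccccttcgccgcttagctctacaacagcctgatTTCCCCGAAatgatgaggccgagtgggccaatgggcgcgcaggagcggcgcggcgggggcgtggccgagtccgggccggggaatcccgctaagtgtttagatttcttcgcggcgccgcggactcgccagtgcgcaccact

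The Isg15 window held 3 overlapping matches to the GAAA repeat, the first beginning 78 bases before the start. Ifit3 and Ifit3b each held 2. With a single shift of 32 bases and no gaps allowed, their windows were identical at 201 of 268 aligned bases (75.0%). Their runs of C differ in length, which puts the bases after them out of register, so this share understates their likeness. Rsad2 held 1 match, and the Dtx3l window held 0 and so has no capitals. Of the 34 genes, 24 had a window in the table used, and these had 28 windows because some genes have several starts. The GAAA repeat was found in 13 of the 28 (46.4%), against 1131 of all 32851 mouse windows (3.44%). The 13 windows belonged to 12 genes, namely Stat2, Ifih1, Ddx58, Ifit1, Ifit3, Ifit3b, Oas1a, Oas3, Rsad2, Bst2, Trim30a and Isg15. TTCNNNGAA was found in 5 of the 28 (17.9%), against 8.30% of all windows, in Irf1, Ifit2, Oas1a, Bst2 and Ifi35, and in Bst2 its match overlapped the first match to the GAAA repeat. The letters describe these windows only and locate no binding. Relative to the mean of EtOH 2 to 4, the level in library EtOH 1 was 0.999 for Stat2 and 9.06 for Isg15, both with the GAAA repeat. It was 0.88 for Dtx3l and 11.0 for Ifi44, both with a window that lacks the repeat. Whether the letters go with the levels was not tested.

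Over the 34 genes a single library, EtOH 1, stood far from its group. On the log2 CPM scale, with the PF mean of each gene set to 0, the median of the 34 genes was -0.48, -0.82, -0.95 and -1.13 in EtOH+MBV 1 to 4. In EtOH 1 it was 1.17, and in EtOH 2 to 4 it was -0.51, -0.58 and -0.65. It was -0.02, 0.24, -0.06 and 0.25 in PF+MBV 1 to 4, and 0.09, 0.20, -0.18 and -0.02 in PF 1 to 4. The 7 libraries of the ethanol diet other than EtOH 1 thus lay below all 8 of the control diet, and EtOH 1 lay above all the rest.

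**Figure D1:**
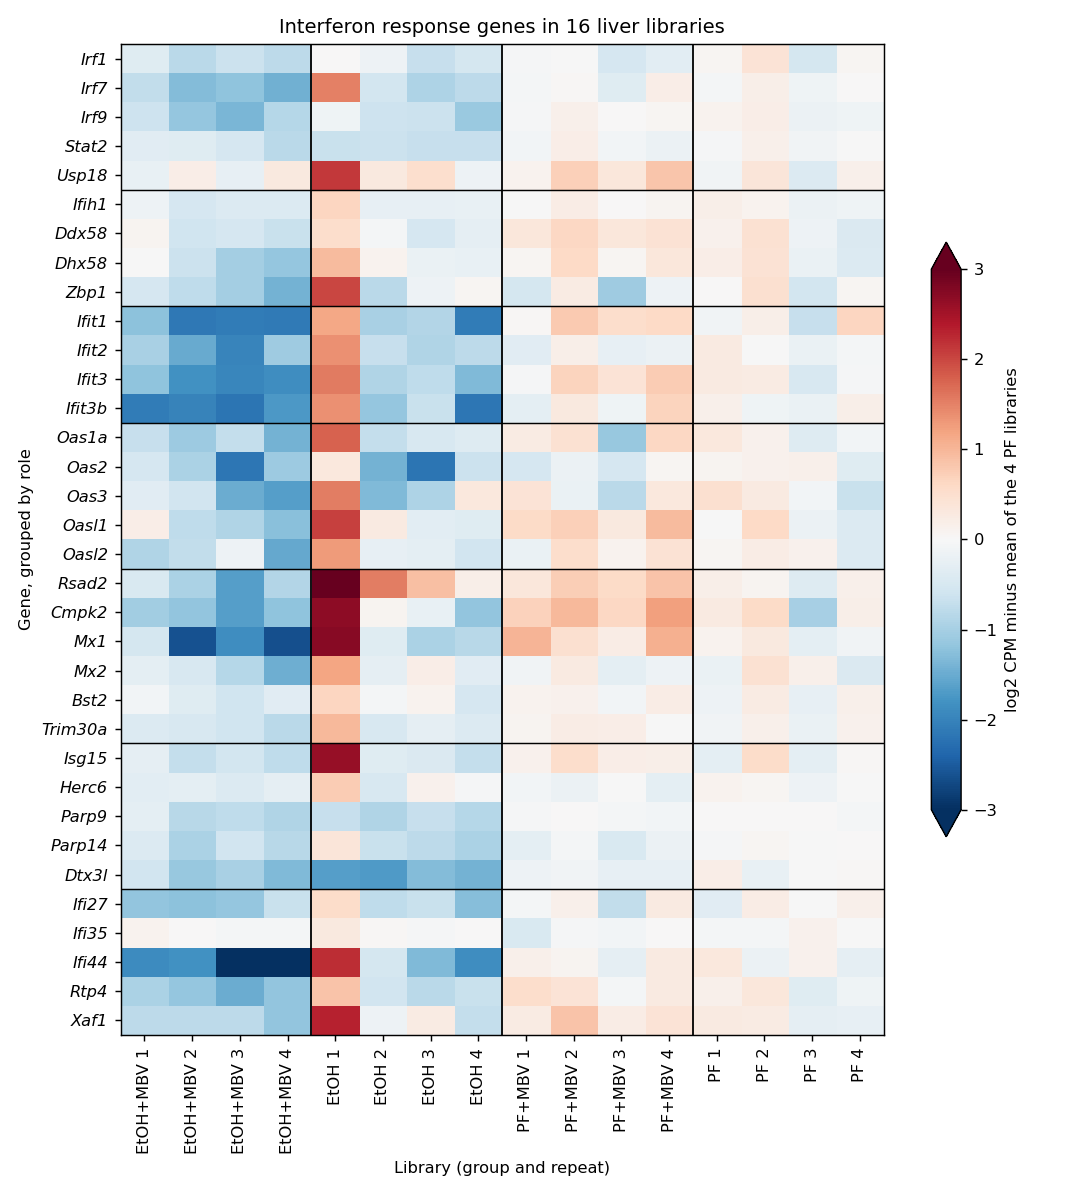
Level of each of the 34 interferon response genes (rows, grouped by role) in each of the 16 libraries (columns), as log2 CPM minus the mean of the 4 PF libraries of that gene; red is above and blue below that mean, and arrows on the colour bar mark values beyond its ends. Blue fills most of the ethanol diet columns, whose medians lie at -0.48 to -1.13, while EtOH 1 is red for most genes, with a median of 1.17, and blue for Stat2, Irf9, Parp9 and Dtx3l.

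EtOH 1 had the highest level of the 4 EtOH libraries for 31 of the 34 genes, against 32.7% of all tested genes, the exceptions being Stat2, Parp9 and Dtx3l. It was the highest of all 16 libraries for 28 of the 34, against 18.3% of all tested genes. Its level was at least 2 times the mean of EtOH 2 to 4 for 24 of the 34, against 8.1% of all tested genes. The ratio was 14.8 for Rsad2, 12.6 for Mx1, 11.0 for Ifi44 and 9.06 for Isg15, and 0.88 for Dtx3l. Results are therefore given for all 16 libraries and for the 15 without EtOH 1.

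Marker genes of other cell types were read in the same libraries. Summed over 10 markers of monocytes and recruited macrophages, of which 7 were tested, the level was 32.4 to 48.1 CPM in EtOH+MBV, 129.5 CPM in EtOH 1, 38.0 to 49.3 CPM in EtOH 2 to 4, 49.6 to 52.5 CPM in PF+MBV and 46.0 to 58.3 CPM in PF. The 6 markers of dividing cells summed to 2.17 to 3.77 CPM in EtOH+MBV, 94.3 CPM in EtOH 1, 5.22 to 8.38 CPM in EtOH 2 to 4, 4.89 to 10.6 CPM in PF+MBV and 7.33 to 9.77 CPM in PF. EtOH 1 stood above all other libraries on both lists. The 7 markers of Kupffer cells, the resident macrophages of the liver, summed to 197 to 291 CPM in EtOH+MBV, 456 CPM in EtOH 1, 164 to 227 CPM in EtOH 2 to 4, 387 to 525 CPM in PF+MBV and 476 to 715 CPM in PF. All ethanol diet libraries but EtOH 1 lay below all of the control diet in this sum, and EtOH 1 lay inside the range of PF+MBV and below all PF libraries. Of the 7, 3 were called lower and 0 higher in EtOH+MBV against PF+MBV (4 and 1 without EtOH 1), and 2 lower and 1 higher in EtOH against PF (5 and 1 without EtOH 1). Over all tested genes 16.7% were called lower and 19.2% higher in the first comparison (20.2% and 22.2% without EtOH 1), and 19.5% and 20.4% in the second (19.1% and 19% without EtOH 1). The 6 markers of liver endothelial cells summed to 226 to 304 CPM in EtOH+MBV, 231 to 268 CPM in EtOH, 290 to 317 CPM in PF+MBV and 271 to 308 CPM in PF. Sums stayed within 0.774 to 3.32 CPM for 8 T and NK cell markers and within 0.126 to 2.47 CPM for 5 B cell markers. They were 2.76 to 13.5 CPM for the 6 of 7 neutrophil markers in the tables. The 6 markers of plasmacytoid dendritic cells, of which 2 were tested, summed to 2.32 to 5.87 CPM in EtOH+MBV, 19.3 CPM in EtOH 1, 3.68 to 5.76 CPM in EtOH 2 to 4, 2.60 to 21.1 CPM in PF+MBV and 1.20 to 1.93 CPM in PF, so EtOH 1 stood above its group on this list too. No marker of these lists was at 0 in all 16 libraries. The part of these cell types in the results that follow was not tested, and in bulk RNA fewer cells of a type and less RNA per cell cannot be told apart.

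**Figure D2:**
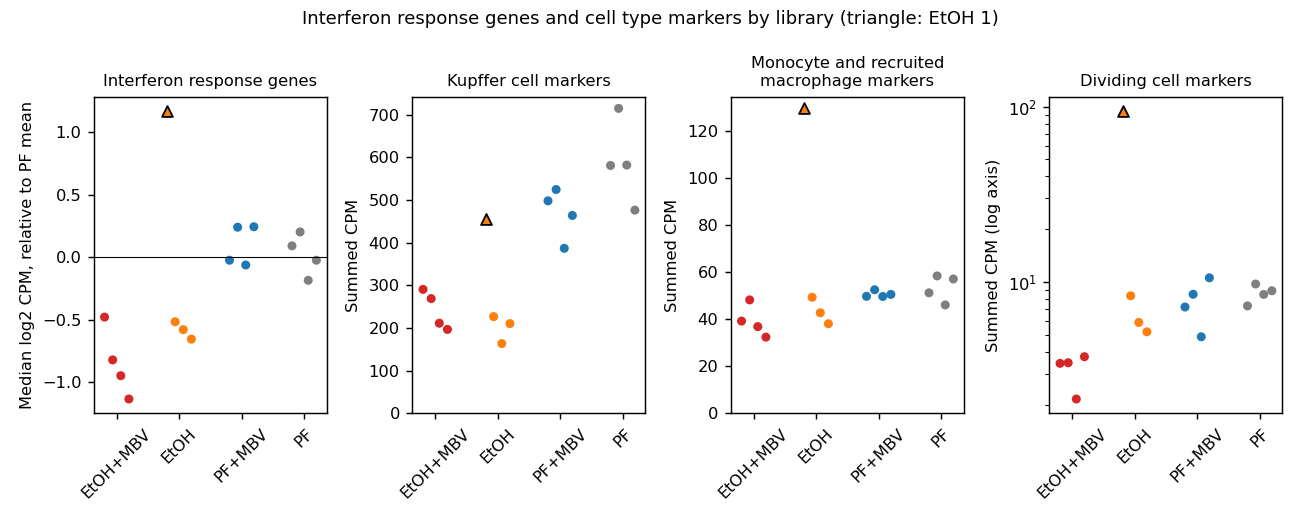
Level in each library of the 34 interferon response genes (left panel, median log2 CPM relative to the PF mean) and of 3 lists of cell type markers (summed CPM, on a log axis for the dividing cell markers), with 1 point per library and a triangle for EtOH 1. EtOH 1 is the highest library for the interferon response genes at 1.17 and for the monocyte markers at 129.5 CPM, and the Kupffer cell sums of the other 7 ethanol diet libraries, 164 to 291 CPM, lie below the 387 to 715 CPM of the control diet.

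The effect of the ethanol diet was measured in both treatments. Among mice treated with MBV, the interferon response genes were lower on the ethanol diet. In EtOH+MBV against PF+MBV, 20 of the 34 were called lower and 0 higher at an adjusted p under 0.05 (2-sided quasi-likelihood test of edgeR, adjusted after Benjamini and Hochberg over all 12901 genes), beside 16.7% of all tested genes called lower and 19.2% called higher. The 20 were Stat2, Irf7 and Irf9, Ddx58 and Dhx58, all 4 Ifit genes, Oasl1 and Oasl2, Cmpk2, Mx1 and Trim30a, Parp9 and Dtx3l, and Ifi27, Ifi44, Rtp4 and Xaf1. The median log2 fold change of the 34 was -0.96, against -0.01 over all tested genes. At an unadjusted p under 0.05 the same test had 24 lower and 0 higher, beside 22% and 23.9% of all tested genes, while DESeq2 called 19 lower and 0 higher and limma's voom with a weight for each library 29 and 0. Over all genes DESeq2 called 2283 lower and 2682 higher and voom 3514 and 3566, against 2155 and 2478 in edgeR, so voom called more genes in general. For 24 of the 34 every EtOH+MBV library lay below every PF+MBV library, which was so for 19.9% of all tested genes.

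No EtOH library enters that comparison, but EtOH 1 enters the estimate of each gene's spread that all groups share. Fitted without EtOH 1, 28 of the 34 were called lower and 0 higher, beside 20.2% of all 13000 genes tested there called lower and 22.2% called higher, with a median of -0.95 against 0.00 over all genes, and 31 were lower and 0 higher at an unadjusted p under 0.05, beside 24.3% and 26.4% of all genes. The 8 added were Ifih1, Oas1a, Oas2, Rsad2, Mx2, Bst2, Isg15 and Parp14. The count of 20 was 11 to 28 when any single library was left out, beside 1543 to 2623 of all genes called lower. It was 11 without EtOH+MBV 2, 12 without EtOH+MBV 3, EtOH+MBV 4 or PF+MBV 2, and 13 without PF+MBV 4, and the 28 became 25 to 30 when a further library was left out. Counts over all genes for these further omissions are not given here.

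Among mice given vehicle, the direction depended on EtOH 1. In EtOH against PF with all 16 libraries, 2 of the 34 were called higher (Rsad2 and Usp18) and 4 lower (Stat2, Irf9, Parp9 and Dtx3l), beside 20.4% of all tested genes called higher and 19.5% called lower, and the median was 0.14 against 0.01 over all tested genes. Without EtOH 1, 15 were called lower and 1, Rsad2, higher, beside 19.1% of all genes called lower and 19% called higher, and the median was -0.56 against -0.01. At an unadjusted p under 0.05 there were 4 lower and 2 higher with EtOH 1, beside 23.7% and 24.8% of all tested genes, and 18 lower and 1 higher without it, beside 24.2% and 23.4%. The 15 were Stat2, Irf7 and Irf9, all 4 Ifit genes, Oas2, Trim30a, Parp9, Parp14, Dtx3l, Ifi27, Ifi44 and Rtp4. Where a change in EtOH against PF is given below only without EtOH 1, edgeR did not call that gene with all 16 libraries. Every EtOH library lay below every PF library for 3 of the 34 with EtOH 1, beside 16.3% of all genes, and for 19 of the 34 without it, beside 20.1%. The count of 15 was 13 to 18 when a further library was left out, for which no count over all genes is given here. With EtOH 1 kept, the count of 2 higher was 4 without EtOH 4, 2 without EtOH 2 or EtOH 3, and 1 without any other library. Over all genes the number called higher ran from 2138 without PF 1 to 2773 without EtOH+MBV 1.

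The comparison of EtOH with PF and that of EtOH+MBV with PF+MBV share no library, but both used 1 model with a shared estimate of each gene's spread. Without EtOH 1, all 15 genes called lower in the first (100%) were among the 28 called lower in the second, of which they made up 53.6%. With all 16 libraries the 4 called lower in the first (100%) were among the 20 of the second (20%). Since 28 of the 34 were called in the second without EtOH 1, a large overlap was likely beforehand. The overlap over all genes is not given here. Irf1, Usp18, Zbp1, Oas3, Herc6 and Ifi35 were called lower by edgeR in neither comparison and in neither fit, while voom called Irf1 and Oas3 lower in EtOH+MBV against PF+MBV. EtOH+MBV had the lowest mean of the 4 groups for 27 of the 34 genes when EtOH 1 was left out, and for 29 with it. How often EtOH+MBV was lowest over all tested genes is not given here, so these counts describe the 34 only.

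**Figure D3:**
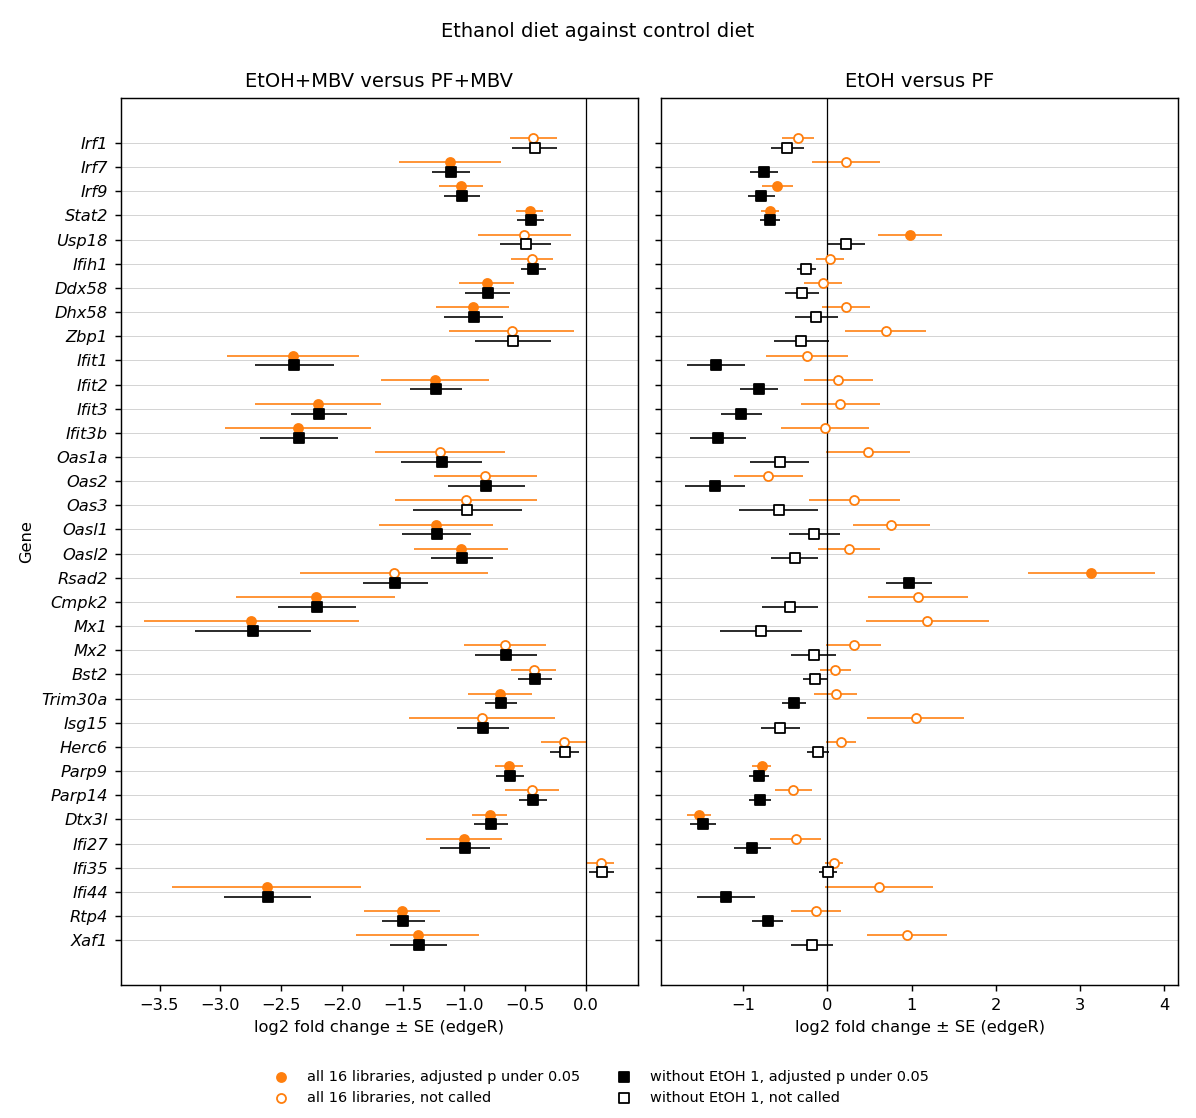
Log2 fold change with its standard error for each of the 34 genes on the ethanol diet against the control diet, with MBV (left panel) and with vehicle (right panel), from the fit of all 16 libraries (circles) and the fit without EtOH 1 (squares); filled symbols have an adjusted p under 0.05. In the left panel the fits lie on each other and 33 of the 34 are below 0, while in the right panel the squares lie left of the circles for every gene but Stat2 and Dtx3l, with medians of -0.56 and 0.14.

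Of the 5 regulators 3 were lower in EtOH+MBV than in PF+MBV in both fits, and the same 3, Stat2, Irf9 and Irf7, were lower in EtOH than in PF without EtOH 1. Stat2, which acts with Irf9 in ISGF3, had 59.4, 58.5, 52.9 and 42.3 CPM in EtOH+MBV, 46.8, 48.2, 46.2 and 46.2 in EtOH, 70.4, 85.6, 70.7 and 66.7 in PF+MBV, and 72.5, 83.4, 69.6 and 74.2 in PF, in the order of the repeats. All 8 ethanol diet libraries lay below all 8 control diet libraries, EtOH 1 included. The log2 fold change was -0.46 ± 0.11 in EtOH+MBV against PF+MBV (SE, adjusted p = 0.00401) and -0.68 ± 0.11 in EtOH against PF (adjusted p = 0.000184). Irf9, which gives ISGF3 its DNA contact, had 21.4, 14.6, 12.7 and 18.2 CPM in EtOH+MBV, 29.9, 21.4, 21.0 and 15.0 in EtOH, 32.2, 36.6, 33.1 and 34.3 in PF+MBV, and 35.1, 37.6, 29.3 and 30.1 in PF. The EtOH+MBV libraries lay below those of PF+MBV, and EtOH 1 was the only EtOH library that reached into the range of PF. The log2 fold change of Irf9 was -1.02 ± 0.18 in EtOH+MBV against PF+MBV (adjusted p = 0.000569) and -0.59 ± 0.18 in EtOH against PF (adjusted p = 0.0153). Irf7, the factor that amplifies interferon production, had 14.5, 9.78, 10.4 and 8.92 CPM in EtOH+MBV, 69.8, 16.4, 12.6 and 14.1 in EtOH, 23.2, 25.0, 18.8 and 27.8 in PF+MBV, and 23.3, 27.3, 22.0 and 24.6 in PF. Each library of the ethanol diet but EtOH 1 was below each of the control diet, and EtOH 1 was the highest of the 16. Its log2 fold change in EtOH+MBV against PF+MBV was -1.12 ± 0.42 (adjusted p = 0.0469), and in EtOH against PF 0.23 ± 0.40 with EtOH 1 (adjusted p = 0.685) and -0.76 ± 0.17 without it (adjusted p = 0.00221).

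Usp18, the protease that strips Isg15 from proteins and restrains receptor signalling, had 6.20, 8.30, 6.11 and 8.92 CPM in EtOH+MBV, 32.0, 8.90, 10.3 and 6.51 in EtOH, 7.76, 12.0, 9.16 and 12.9 in PF+MBV, and 6.72, 9.33, 5.38 and 8.08 in PF. Outside EtOH 1 the groups overlapped. Its rise in EtOH against PF, 0.98 ± 0.38 on the log2 scale (adjusted p = 0.0489), was 0.22 ± 0.23 without EtOH 1 (adjusted p = 0.466). Irf1, a factor induced by interferon and by other signals, averaged 15.2 ± 2.27 CPM in EtOH+MBV, 19.1 ± 4.28 in EtOH, 20.5 ± 3.30 in PF+MBV and 24.3 ± 6.16 in PF (SD, n = 4 each). It was called in no comparison in either edgeR fit, and voom called it lower in EtOH+MBV against PF+MBV.

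Of the sensors, Ifih1 (MDA5), Ddx58 (RIG-I) and Dhx58 (LGP2) recognise double-stranded or unprocessed RNA in the cytosol. Ifih1 had 34, 26.5, 28.4 and 28.3 CPM in EtOH+MBV, 59.0, 31.7, 31.5 and 32.4 in EtOH, 37.3, 43.9, 37.9 and 39.8 in PF+MBV, and 42.8, 40.7, 33.6 and 34.5 in PF. EtOH+MBV lay below PF+MBV with no overlap, and EtOH 2 to 4 lay just below the lowest PF library. The log2 fold change in EtOH+MBV against PF+MBV was -0.44 ± 0.17 with an adjusted p of 0.0576 in the fit of all libraries and 0.00287 without EtOH 1. Ddx58 had 25.7, 15.9, 17.0 and 15.2 CPM in EtOH+MBV, 35.0, 23.2, 16.8 and 20.1 in EtOH, 30.3, 36.9, 30.3 and 32.4 in PF+MBV, and 26.5, 33.0, 21.8 and 17.7 in PF. The EtOH+MBV libraries were again all below those of PF+MBV, whereas EtOH and PF overlapped. The change on the log2 scale was -0.81 ± 0.23 in EtOH+MBV against PF+MBV (adjusted p = 0.0106) and -0.30 ± 0.20 in EtOH against PF without EtOH 1 (adjusted p = 0.254). Dhx58 had 8.55, 5.42, 4.20 and 3.77 CPM in EtOH+MBV, 16.7, 9.31, 7.45 and 7.29 in EtOH, 8.93, 13.1, 9.01 and 10.9 in PF+MBV, and 9.84, 11.6, 7.43 and 6.40 in PF. It separated the diets under MBV and not under vehicle, with -0.93 ± 0.30 (adjusted p = 0.0222) and, without EtOH 1, -0.13 ± 0.26 (adjusted p = 0.711). Zbp1, a sensor of left-handed nucleic acid, averaged 2.32 ± 0.639 CPM in EtOH+MBV, 7.22 ± 7.21 in EtOH, 3.56 ± 1.37 in PF+MBV and 4.52 ± 1.31 in PF (SD, n = 4 each), with 18.0 CPM in EtOH 1. Neither edgeR fit called Zbp1 in any comparison, and DESeq2 called it lower in EtOH+MBV against EtOH.

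The Ifit genes code for proteins that bind foreign RNA and block its translation, and they fell furthest as a group in EtOH+MBV against PF+MBV, with a median log2 fold change of -2.28 over the 4. Ifit3 had 3.84, 2.48, 2.23 and 2.39 CPM in EtOH+MBV, 26.8, 4.77, 5.24 and 3.55 in EtOH, 8.82, 14.4, 12.0 and 15.3 in PF+MBV, and 10.8, 10.8, 6.38 and 8.82 in PF. The highest EtOH+MBV library was under the lowest PF+MBV library, and EtOH 2 to 4 were under the lowest PF library. Ifit3 was 4.59-fold lower in EtOH+MBV than in PF+MBV (-2.20 ± 0.52 on the log2 scale, adjusted p = 0.00389), and in EtOH against PF its log2 fold change was 0.15 ± 0.47 with EtOH 1 (adjusted p = 0.820) and -1.02 ± 0.24 without it (adjusted p = 0.00398). Ifit1, which recognises caps without self methylation, had 2.91, 1.47, 1.53 and 1.51 CPM in EtOH+MBV, 15.6, 3.49, 3.76 and 1.55 in EtOH, 7.11, 12.0, 10.0 and 10.6 in PF+MBV, and 6.48, 7.83, 4.24 and 10.9 in PF. The pattern was that of Ifit3, with EtOH 4 as low as the EtOH+MBV libraries. It was 5.30-fold lower in EtOH+MBV than in PF+MBV (-2.41 ± 0.54, adjusted p = 0.00292), and its log2 fold change was -1.32 ± 0.34 in EtOH against PF without EtOH 1 (adjusted p = 0.00694).

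Ifit3b, the close copy of Ifit3 whose window is shown above, had 0.548, 0.603, 0.509 and 0.754 CPM in EtOH+MBV, 7.26, 1.16, 1.68 and 0.516 in EtOH, 2.23, 3.41, 2.50 and 4.41 in PF+MBV, and 3.06, 2.51, 2.39 and 3.11 in PF. These levels rest on 8 to 12 counts in each EtOH+MBV library, all below those of the other groups but for EtOH 4. Its log2 fold change was -2.37 ± 0.60 in EtOH+MBV against PF+MBV (adjusted p = 0.00634) and -1.30 ± 0.33 in EtOH against PF without EtOH 1 (adjusted p = 0.00583). Ifit3 and Ifit3b share sequence, 51.2% of the 50-base stretches of Ifit3 transcripts being found in Ifit3b, so reads may be split between them or lost and neither level is certain. Ifit2 had 2.69, 1.81, 1.27 and 2.51 CPM in EtOH+MBV, 14.2, 3.32, 2.82 and 3.10 in EtOH, 4.23, 6.11, 4.53 and 4.76 in PF+MBV, and 6.54, 5.32, 4.69 and 5.16 in PF. Here the 4 EtOH+MBV libraries lay below all the others. The fitted log2 fold change was -1.24 ± 0.44 in EtOH+MBV against PF+MBV (adjusted p = 0.0389) and -0.81 ± 0.22 in EtOH against PF without EtOH 1 (adjusted p = 0.00969).

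The Oas genes code for synthetases of the oligoadenylates that activate RNase L, and 2 of the 5, Oasl1 and Oasl2, were lower in EtOH+MBV than in PF+MBV with all libraries. Oasl1, which lacks synthetase activity and in mice limits translation of Irf7, had 9.21, 4.69, 4.20 and 3.27 CPM in EtOH+MBV, 33.3, 9.60, 6.44 and 6.19 in EtOH, 12.0, 13.1, 9.84 and 15.6 in PF+MBV, and 7.94, 12.1, 7.08 and 6.03 in PF. EtOH+MBV and PF+MBV did not overlap, while EtOH 2 to 4 lay inside the range of PF. The log2 fold change was -1.23 ± 0.47 in EtOH+MBV against PF+MBV (adjusted p = 0.0495) and -0.15 ± 0.30 in EtOH against PF without EtOH 1 (adjusted p = 0.717). Oasl2 had 2.19, 2.48, 3.76 and 1.38 CPM in EtOH+MBV, 10.4, 3.55, 3.42 and 2.77 in EtOH, 3.64, 6.11, 4.53 and 5.67 in PF+MBV, and 4.34, 4.95, 4.64 and 3.11 in PF. EtOH+MBV 3 overlapped the lowest PF+MBV library, and the log2 fold change was -1.03 ± 0.38 (adjusted p = 0.0467). Oas2 had 3.45, 2.54, 1.02 and 2.26 CPM in EtOH+MBV, 6.24, 1.80, 1.01 and 3.16 in EtOH, 3.47, 4.43, 3.49 and 5.16 in PF+MBV, and 5.32, 5.45, 5.53 and 3.85 in PF. EtOH+MBV lay under PF+MBV by a narrow gap, and EtOH 2 to 4 lay under PF. Oas2 was the Oas gene that fell in EtOH against PF without EtOH 1, with -1.33 ± 0.36 (adjusted p = 0.00802), and in EtOH+MBV against PF+MBV it had -0.83 ± 0.42 (adjusted p = 0.136) with all libraries and -0.82 ± 0.32 (adjusted p = 0.0499) without EtOH 1. Oas1a had 1.54, 1.14, 1.53 and 0.880 CPM in EtOH+MBV, 9.00, 1.51, 1.81 and 1.93 in EtOH, 3.06, 3.57, 1.09 and 4.01 in PF+MBV, and 3.24, 2.82, 1.94 and 2.42 in PF. PF+MBV 3 lay among the EtOH+MBV libraries, and the log2 fold change was -1.19 ± 0.53 with all libraries (adjusted p = 0.0899) and -1.18 ± 0.33 without EtOH 1 (adjusted p = 0.00947). The level of Oas1a is uncertain, since 57.6% of its 50-base stretches also occur in Oas1g. Oas3 averaged 0.820 ± 0.408 CPM in EtOH+MBV, 2.11 ± 2.03 in EtOH, 1.65 ± 0.621 in PF+MBV and 1.72 ± 0.578 in PF (SD, n = 4 each), with 4.99 CPM in EtOH 1. Neither edgeR fit called Oas3 in any comparison, and voom called it lower in EtOH+MBV against PF+MBV.

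**Figure D4:**
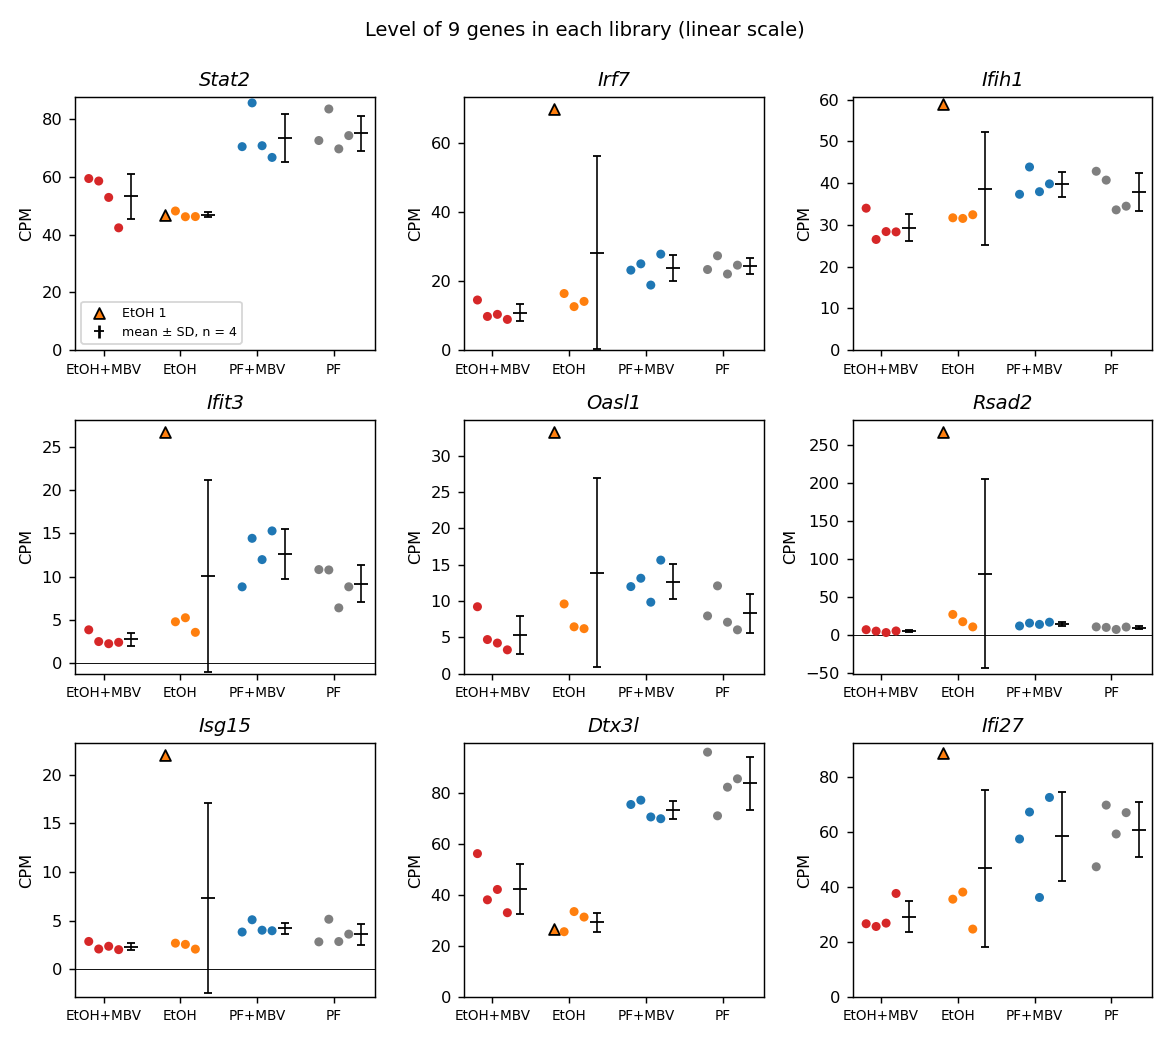
Level in CPM on a linear scale of 9 interferon response genes in every library (points, with a triangle for EtOH 1) beside the mean and standard deviation of each group of 4; bars that pass below 0 are drawn as computed. Stat2 and Dtx3l separate the diets with EtOH 1 among the low libraries, and for the other genes EtOH 1 stands above its group, at 267 CPM for Rsad2.

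Among the antiviral effectors Rsad2 had the widest range in CPM of any of the 34 genes. Rsad2 (viperin) makes a nucleotide that ends viral RNA chains, and Cmpk2, which lies next to it, codes for a kinase that supplies nucleotides. On GRCm38 Rsad2 lies at chr12:26442746-26456452 on the minus strand and Cmpk2 at chr12:26469204-26479837 on the plus strand. Rsad2 had 6.58, 4.69, 2.80 and 4.90 CPM in EtOH+MBV, 267, 26.6, 17.0 and 10.3 in EtOH, 11.5, 15.3, 13.5 and 16.4 in PF+MBV, and 10.3, 9.58, 6.88 and 10.1 in PF. The EtOH+MBV libraries lay below all the others, the PF+MBV libraries above those of PF, and EtOH 1 far above all. The log2 fold change in EtOH against PF was 3.13 ± 0.76 with EtOH 1 (adjusted p = 0.00398) and 0.97 ± 0.27 without it (adjusted p = 0.0107), the only rise among the 34 in that fit, and EtOH 4 overlapped PF. For EtOH+MBV relative to PF+MBV it was -1.57 ± 0.77 with EtOH 1 in the fit (adjusted p = 0.122) and -1.56 ± 0.27 without it (adjusted p = 0.000344). Cmpk2 had 1.97, 1.81, 1.27 and 1.76 CPM in EtOH+MBV, 27.8, 4.48, 3.62 and 1.81 in EtOH, 6.88, 8.38, 6.51 and 10.1 in PF+MBV, and 5.07, 6.33, 2.04 and 4.78 in PF. As for Rsad2, PF+MBV lay above PF and EtOH+MBV below PF+MBV, but EtOH 4 was as low as the EtOH+MBV libraries. Its log2 fold change was -2.22 ± 0.65 in EtOH+MBV against PF+MBV (adjusted p = 0.0148) and -0.45 ± 0.33 in EtOH against PF without EtOH 1 (adjusted p = 0.305).

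Mx1, a GTPase that blocks influenza viruses in mice, had 0.658, 0.0670, 0.191 and 0.0628 CPM in EtOH+MBV, 7.31, 0.756, 0.470 and 0.516 in EtOH, 2.17, 1.46, 1.20 and 2.23 in PF+MBV, and 1.10, 1.25, 0.798 and 0.932 in PF. The EtOH+MBV levels rest on 12, 1, 3 and 1 counts, so the size of the change is poorly known. The change on the log2 scale in EtOH+MBV against PF+MBV was -2.75 ± 0.88 (adjusted p = 0.0231). Bst2 (tetherin), which holds budding virions at the cell surface, had 77.9, 64.3, 54.9 and 65.2 CPM in EtOH+MBV, 129, 78.8, 89.1 and 58.4 in EtOH, 88.5, 90.0, 78.0 and 96.4 in PF+MBV, and 74.6, 97.5, 70.2 and 91.2 in PF. EtOH+MBV lay below PF+MBV by the narrowest of gaps, and the log2 fold change of -0.43 ± 0.19 had an adjusted p of 0.0829 with all libraries and 0.0239 without EtOH 1. Trim30a, a ubiquitin ligase of the TRIM family, had 5.92, 5.69, 5.22 and 4.52 CPM in EtOH+MBV, 15.8, 5.70, 6.58 and 5.93 in EtOH, 8.41, 9.36, 9.21 and 7.85 in PF+MBV, and 7.46, 8.90, 6.93 and 8.76 in PF. EtOH 2 to 4 and all EtOH+MBV libraries lay below the control diet, with -0.70 ± 0.26 in EtOH+MBV against PF+MBV (adjusted p = 0.0455) and -0.40 ± 0.14 in EtOH against PF without EtOH 1 (adjusted p = 0.0364). Mx2, annotated as a polymorphic pseudogene, averaged 2.96 ± 1.01 CPM in EtOH+MBV, 6.23 ± 3.49 in EtOH, 4.71 ± 0.820 in PF+MBV and 5.05 ± 1.42 in PF (SD, n = 4 each). In EtOH 2 to 4 Mx2 averaged 4.53 ± 0.968 CPM. The edgeR fits called it only in EtOH+MBV against PF+MBV without EtOH 1 (-0.65 ± 0.25, adjusted p = 0.0483). With all libraries voom called Mx2 lower there too, and DESeq2 called it lower in EtOH+MBV against EtOH.

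Dtx3l and Parp9 form a ubiquitin ligase and ADP-ribosyltransferase pair, and EtOH 1 was not the highest EtOH library for either. Dtx3l had 56.2, 38.0, 42.1 and 33.0 CPM in EtOH+MBV, 26.5, 25.5, 33.4 and 31.3 in EtOH, 75.4, 77.1, 70.5 and 69.8 in PF+MBV, and 95.9, 71.0, 82.2 and 85.5 in PF. All 8 ethanol diet libraries lay below all 8 of the control diet, and EtOH 1 was not raised. Its log2 fold change was -0.79 ± 0.14 in EtOH+MBV against PF+MBV (adjusted p = 0.000636) and -1.52 ± 0.14 in EtOH against PF (adjusted p = 2.26e-06) with all libraries, where it was the largest fall among the 34. Parp9 had 48.2, 33.1, 34.7 and 31.3 CPM in EtOH+MBV, 36.4, 31.4, 36.7 and 32.6 in EtOH, 57.3, 59.3, 56.0 and 55.7 in PF+MBV, and 59.5, 59.1, 59.7 and 56.9 in PF. It separated the diets in the same manner, with -0.63 ± 0.11 under MBV (adjusted p = 0.000609) and -0.78 ± 0.11 under vehicle (adjusted p = 7.76e-05). The exons of Parp9 and Dtx3l overlap by 458 bases on opposite strands of chromosome 16, and these libraries do not keep the strand, so a share of the reads of each cannot be assigned. Parp14, a further ADP-ribosyltransferase, had 29.2, 20.2, 26.0 and 21.9 CPM in EtOH+MBV, 50.5, 24.4, 22.8 and 20.1 in EtOH, 31.9, 37.4, 28.5 and 34.3 in PF+MBV, and 38.3, 40.5, 38.4 and 39.1 in PF. EtOH 2 to 4 lay below every PF library, and EtOH 1 above them. The fitted log2 fold change in EtOH against PF was -0.40 ± 0.22 with EtOH 1 (adjusted p = 0.155) and -0.80 ± 0.13 without it (adjusted p = 0.000178).

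Isg15, the ubiquitin-like protein that is joined to targets, had 2.85, 2.08, 2.36 and 2.01 CPM in EtOH+MBV, 22.0, 2.68, 2.55 and 2.06 in EtOH, 3.82, 5.08, 4.01 and 3.95 in PF+MBV, and 2.81, 5.14, 2.84 and 3.60 in PF. EtOH+MBV lay below PF+MBV with no overlap, EtOH 2 to 4 lay below all PF libraries, and EtOH 1 stood above all the rest. The log2 fold change in EtOH+MBV against PF+MBV was -0.85 ± 0.60 with all libraries (adjusted p = 0.281) and -0.85 ± 0.21 without EtOH 1 (adjusted p = 0.00499). In EtOH against PF without EtOH 1 it was -0.56 ± 0.23 (adjusted p = 0.0700). Herc6, the main ligase for Isg15 in mice, averaged 14.6 ± 0.662 CPM in EtOH+MBV, 20.5 ± 7.65 in EtOH, 16.6 ± 1.36 in PF+MBV and 18.3 ± 1.36 in PF (SD, n = 4 each), and was called in no comparison in either edgeR fit. In EtOH 2 to 4 Herc6 averaged 16.9 ± 3.58 CPM.

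Of the remaining interferon-induced genes, Ifi27 had 26.7, 25.6, 26.9 and 37.7 CPM in EtOH+MBV, 89.0, 35.6, 38.2 and 24.7 in EtOH, 57.5, 67.4, 36.2 and 72.7 in PF+MBV, and 47.4, 69.9, 59.4 and 67.2 in PF. EtOH 2 to 4 lay below all PF libraries, and in the MBV groups a single pair of libraries overlapped, EtOH+MBV 4 and PF+MBV 3. Its log2 fold change was -1.0 ± 0.31 in EtOH+MBV against PF+MBV (adjusted p = 0.0192) and -0.89 ± 0.22 in EtOH against PF without EtOH 1 (adjusted p = 0.00496). Rtp4, a chaperone of G protein-coupled receptors, had 4.83, 4.15, 3.25 and 4.08 CPM in EtOH+MBV, 16.9, 6.28, 5.30 and 5.87 in EtOH, 13.6, 12.5, 9.06 and 11.4 in PF+MBV, and 10.5, 11.9, 7.28 and 8.51 in PF. The EtOH+MBV libraries were lowest, EtOH 2 to 4 next, and the control diet above both, with -1.51 ± 0.31 in EtOH+MBV against PF+MBV (adjusted p = 0.00174) and -0.71 ± 0.19 in EtOH against PF without EtOH 1 (adjusted p = 0.00784). Ifi44 had 0.823, 0.871, 0.318 and 0.251 CPM in EtOH+MBV, 16.0, 2.27, 1.28 and 0.838 in EtOH, 3.76, 3.57, 2.76 and 4.07 in PF+MBV, and 4.22, 2.94, 3.69 and 2.73 in PF. The order was similar, with EtOH 4 among the EtOH+MBV libraries, and the fold changes were larger, -2.62 ± 0.77 in EtOH+MBV against PF+MBV (adjusted p = 0.0151) and -1.20 ± 0.35 in EtOH against PF without EtOH 1 (adjusted p = 0.0126). With EtOH 1 the direction was the other way, the mean of Ifi44 being 5.10 CPM in EtOH and 3.40 CPM in PF. Xaf1, which binds the apoptosis inhibitor Xiap, had 2.03, 2.01, 2.04 and 1.51 CPM in EtOH+MBV, 18.1, 3.20, 4.23 and 2.13 in EtOH, 4.23, 6.54, 4.22 and 4.81 in PF+MBV, and 4.34, 4.26, 2.94 and 2.98 in PF. EtOH+MBV lay below the other 3 groups, with -1.38 ± 0.51 against PF+MBV (adjusted p = 0.0427), and EtOH 2 to 4 overlapped PF. Ifi35 had 23.3, 22.0, 20.8 and 20.7 CPM in EtOH+MBV, 26.6, 22.5, 21.4 and 21.8 in EtOH, 15.8, 21.3, 20.7 and 22.1 in PF+MBV, and 21.0, 20.9, 23.7 and 21.7 in PF. The 4 groups overlapped, with log2 fold changes of 0.12 ± 0.11 and 0.08 ± 0.11 for the diet with MBV and with vehicle (adjusted p = 0.406 and 0.578).

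The effect of MBV on the ethanol diet rested on few genes once EtOH 1 was set aside. With EtOH+MBV set against EtOH with all 16 libraries, 2 of the 34 were called lower, Rsad2 and Ifi44, and 0 higher, beside 1.45% of all tested genes called lower and 1.24% called higher. At an unadjusted p under 0.05 the same edgeR test had 26 lower and 1 higher, beside 11.2% and 9.88% of all tested genes. Without EtOH 1 only Rsad2 was called, beside 0.392% of all genes called lower and 0.369% called higher, and at an unadjusted p under 0.05 there were 10 lower and 1 higher, beside 7.55% and 8.32%. The median log2 fold change of the 34 was -1.06 with EtOH 1, against 0.01 over all genes, and -0.39 without it, against 0.01.

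Rsad2 was 16.9-fold lower in EtOH+MBV than in EtOH with all libraries (-4.08 ± 0.80 on the log2 scale, adjusted p = 0.0210) and 3.76-fold lower without EtOH 1 (-1.91 ± 0.28, adjusted p = 0.00928), and each EtOH+MBV library was below each EtOH library. Ifi44 had -3.18 ± 0.77 with EtOH 1 (adjusted p = 0.0402) and -1.35 ± 0.41 without it (adjusted p = 0.126). Ifit2, Rtp4 and Xaf1 also had every EtOH+MBV library below every EtOH library, and without EtOH 1 their log2 fold changes were -0.56 ± 0.24, -0.50 ± 0.19 and -0.74 ± 0.26 (adjusted p = 0.257, 0.216 and 0.179). With Rsad2 these make 4 of the 34, with or without EtOH 1, beside 3.55% of all tested genes with it and 5.19% without it. Dtx3l had the largest positive value of the 34 in both edgeR fits, 0.54 ± 0.14 with all libraries (adjusted p = 0.0530) and 0.50 ± 0.15 without EtOH 1 (adjusted p = 0.133). DESeq2 called 14 of the 34 lower and 1, Dtx3l, higher with all 16 libraries, limma's voom with a weight for each library called 1 lower and 0 higher, and a fit of the EtOH+MBV and EtOH libraries alone called 0. Over all genes DESeq2 called 530 lower and 362 higher, voom 73 and 70, and the fit of these libraries alone 0 and 0. The count of 2 lower was 0 without EtOH+MBV 3, 3 without EtOH+MBV 1, 9 without EtOH 3, 18 without EtOH 4, 2 without PF 2 and 1 without any other single library. Over all genes the number called lower moved as well, from 3 without EtOH+MBV 3 to 649 without EtOH 4.

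**Figure D5:**
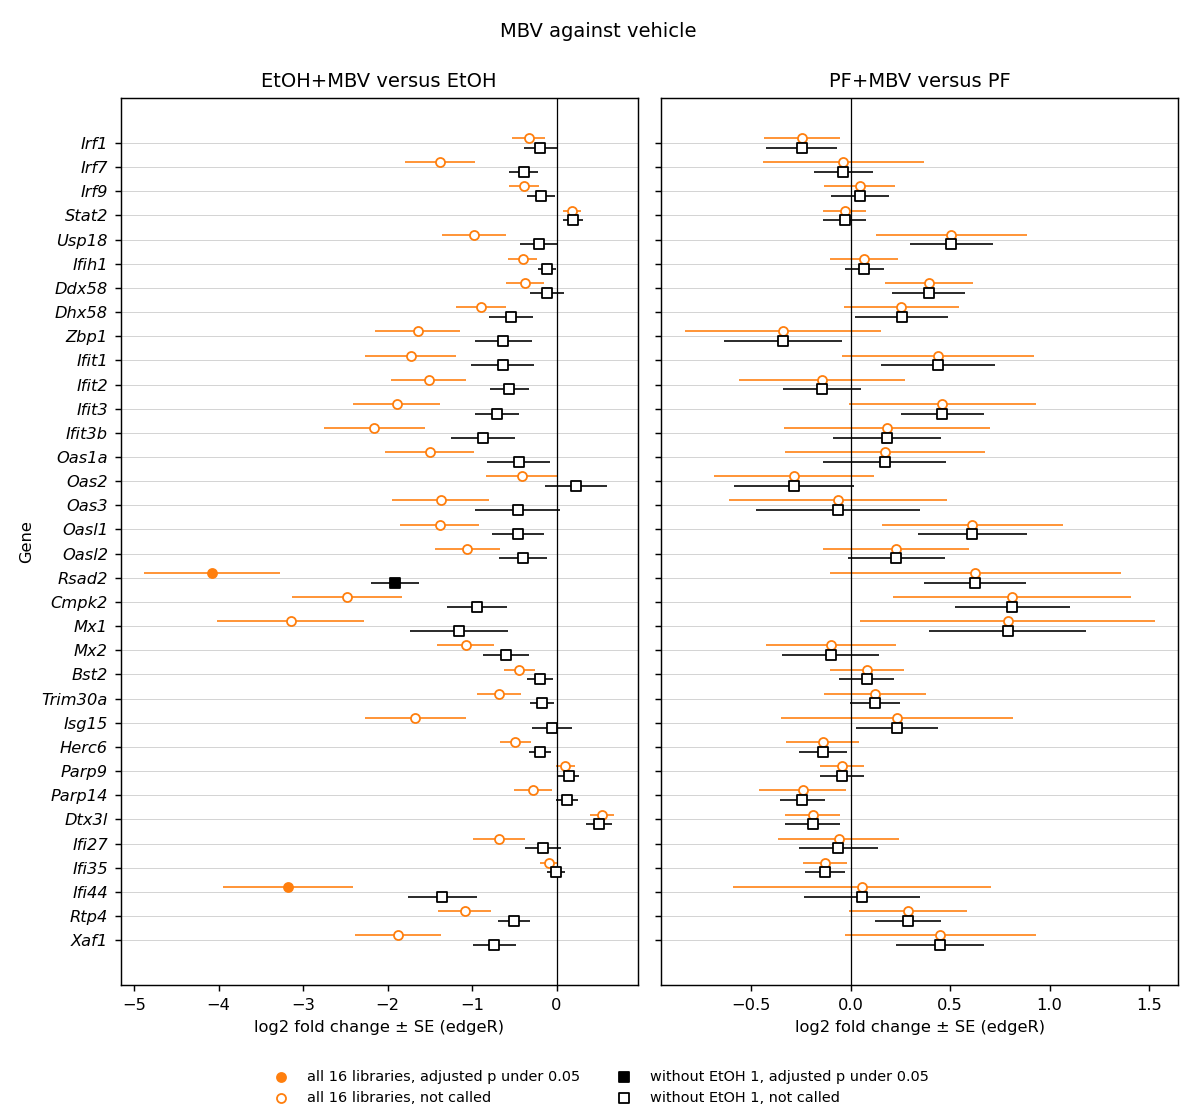
Log2 fold change with its standard error for each of the 34 genes in MBV-treated mice against mice given vehicle, on the ethanol diet (left panel) and the control diet (right panel), from the fit of all 16 libraries (circles) and the fit without EtOH 1 (squares); filled symbols have an adjusted p under 0.05. On the ethanol diet most circles lie further below 0 than the squares, with medians of -1.06 and -0.39, and Rsad2 is the gene filled in both fits; on the control diet no symbol is filled.

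On the control diet the effect of MBV on these genes was not resolved. In PF+MBV against PF, edgeR called 0 of the 34 higher and 0 lower, beside 0.752% and 1.03% of all tested genes, and 0 and 0 had an unadjusted p under 0.05, beside 8.15% and 8.76%. Without EtOH 1 the counts were again 0 and 0, beside 1.84% and 2.28% of all genes, with 6 higher and 1 lower at an unadjusted p under 0.05, beside 9.98% and 10.8%. DESeq2 called 0, and limma's voom with a weight for each library called 3 higher, Cmpk2, Ddx58 and Oasl1, and 0 lower. Over all genes DESeq2 called 283 higher and 362 lower, and voom 1226 and 1268, so voom called more genes in general. The median log2 fold change of the 34 was 0.08, against 0.00 over all genes. All PF+MBV libraries lay above all PF libraries for Rsad2 (0.63 ± 0.26 without EtOH 1, adjusted p = 0.173) and Cmpk2 (0.81 ± 0.29, adjusted p = 0.121), and below them for Parp14 (-0.24 ± 0.11, adjusted p = 0.238). These are 2 and 1 of the 34, beside 7.7% of all tested genes with PF+MBV above PF and 7.26% with it below.

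The difference between the MBV effect on the ethanol diet and that on the control diet was tested as an interaction. With all 16 libraries 2 of the 34 were called lower, Rsad2 and Cmpk2, and 0 higher, beside 2.09% of all tested genes called lower and 2.02% called higher, and the same 2 were called without EtOH 1, with 0 higher, beside 2.08% and 2%. The interaction of Rsad2 was -4.70 ± 1.07 on the log2 scale (adjusted p = 0.0264) and -2.54 ± 0.38 without EtOH 1 (adjusted p = 0.00561). That of Cmpk2 was -3.29 ± 0.88 (adjusted p = 0.0462) and -1.76 ± 0.46 without EtOH 1 (adjusted p = 0.0449). With each of the 16 libraries left out in turn, the call of Cmpk2 was lost in 12 omissions and that of Rsad2 in 5. For both genes MBV libraries were lower than vehicle libraries on average on the ethanol diet and higher on the control diet. At an unadjusted p under 0.05, 19 of the 34 were lower and 1 higher with all libraries, beside 11.9% and 11.4% of all tested genes, and 12 and 2 without EtOH 1, beside 9.94% and 11%. DESeq2 called 10 lower and voom 7, and both called Dtx3l higher. Over all genes DESeq2 called 562 lower and 535 higher, and voom 698 and 712. The edgeR count of 2 lower was 11 without EtOH 4, 6 without EtOH 3 and 4 without EtOH+MBV 1. It was 0 without EtOH+MBV 3, PF+MBV 2, PF+MBV 4, PF 1 or PF 3, and 1 without EtOH+MBV 2, EtOH+MBV 4, EtOH 2, PF+MBV 1, PF+MBV 3 or PF 4. Over all genes the number called lower moved as well, from 76 without PF 1 to 541 without EtOH 4.

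Genes upstream of the 34 were read from further lists. Counts of calls in these lists stand beside the shares of all tested genes given above, 16.7% lower and 19.2% higher in EtOH+MBV against PF+MBV, and 19.5% lower and 20.4% higher in EtOH against PF. Without EtOH 1 these shares were 20.2% lower and 22.2% higher, and 19.1% lower and 19% higher. The interferons themselves were almost not detected. Of 21 interferon genes measured, 13 had 0 counts in all 16 libraries, among them 12 of the 18 of type I, and 0 reached the filter. Ifnb1, the gene of interferon beta, had 4 counts over the 16 libraries, 1 of them in EtOH 1. A count of 0 allows up to 3 counts, or 0.145 to 0.201 CPM by library, which covers counting error only.

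Of 10 receptor and kinase genes 9 were tested. In EtOH+MBV against PF+MBV 3 were called lower and 2 higher (4 and 3 without EtOH 1), and in EtOH against PF 0 were lower and 2 higher with EtOH 1, and 2 and 2 without it. Jak2, a kinase of the receptors for interferon gamma and other cytokines, had -0.87 ± 0.23 in EtOH+MBV against EtOH (adjusted p = 0.0493) and -0.58 ± 0.19 without EtOH 1 (adjusted p = 0.149). Ifngr1 and Ifngr2, the chains of the interferon gamma receptor, were higher in EtOH than in PF, by 0.93 ± 0.26 and 0.61 ± 0.15 with all libraries (adjusted p = 0.0109 and 0.00556). Without EtOH 1 they were higher by 0.43 ± 0.14 and 0.63 ± 0.17 (adjusted p = 0.0251 and 0.00794).

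Of 6 negative regulators 5 were tested, and the counts of calls were the same with and without EtOH 1. Against PF+MBV 3 rose and 1 fell in EtOH+MBV, and in EtOH against PF 2 rose and 1 fell. The phosphatases Ptpn2 and Ptpn11 rose in both, Ptpn2 by 0.90 ± 0.16 (adjusted p = 0.000569) and 0.85 ± 0.16 (adjusted p = 0.000646), and Ptpn11 by 0.36 ± 0.09 (adjusted p = 0.00551) and 0.49 ± 0.09 (adjusted p = 0.000474). Ptpn6, a phosphatase of blood cells, fell, with -0.67 ± 0.13 (adjusted p = 0.00103) and -0.81 ± 0.13 (adjusted p = 0.000176). Socs3, an inhibitor of cytokine receptors, rose by 0.75 ± 0.28 in EtOH+MBV against PF+MBV (adjusted p = 0.0479).

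Of 17 sensing adaptors and factors, all tested, 2 rose and 2 fell in EtOH+MBV against PF+MBV, and 5 rose and 1 fell in EtOH against PF (3 and 1 without EtOH 1). The kinases that activate the interferon genes were higher on the ethanol diet. Ikbke had 27.9, 51.1, 54.1 and 45.2 CPM in EtOH+MBV, 52.2, 51.5, 38.7 and 57.3 in EtOH, 17.6, 24.3, 17.1 and 17.4 in PF+MBV, and 12.4, 20.1, 10.5 and 7.52 in PF. Every ethanol diet library lay above every control diet library, with 1.22 ± 0.25 in EtOH+MBV against PF+MBV (adjusted p = 0.00147) and 1.98 ± 0.26 in EtOH against PF (adjusted p = 2.77e-05). Tbk1 rose as well, by 0.65 ± 0.13 (adjusted p = 0.00114) and 0.46 ± 0.13 (adjusted p = 0.00951), and so did Ticam1, the adaptor of Tlr3, in EtOH against PF (0.62 ± 0.15, adjusted p = 0.00409). Eif2ak2 (PKR), a sensor kinase that is itself induced by interferon, was lower in EtOH+MBV than in PF+MBV (-0.54 ± 0.16, adjusted p = 0.0136). Against EtOH it had -0.69 ± 0.16 (adjusted p = 0.0315), and -0.53 ± 0.14 without EtOH 1 (adjusted p = 0.0930).

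A further list held 50 interferon-stimulated genes outside the 34, of which 48 were in the tables and 43 were tested (44 without EtOH 1). For EtOH+MBV relative to PF+MBV 20 fell and 6 rose (24 and 6 without EtOH 1), with a median of -0.55, beside 16.7% of all tested genes lower and 19.2% higher (20.2% and 22.2% without EtOH 1). In EtOH against PF 4 fell and 4 rose, and without EtOH 1 13 fell and 1 rose, with medians of -0.02 and -0.36, beside 19.5% lower and 20.4% higher with EtOH 1 and 19.1% and 19% without it. With EtOH+MBV set against EtOH 3 fell and 0 rose, and without EtOH 1 0 and 0, beside 1.45% and 1.24% of all tested genes (0.392% and 0.369% without EtOH 1). In PF+MBV against PF 0 fell and 0 rose, and without EtOH 1 2 fell and 1 rose, beside 1.03% and 0.752% (2.28% and 1.84% without EtOH 1). In the interaction 1 was lower and 1 higher (1 and 0 without EtOH 1), beside 2.09% and 2.02% (2.08% and 2% without EtOH 1). Ifi203, of the HIN-200 family of DNA-binding proteins, fell, with -1.32 ± 0.23 in EtOH+MBV against PF+MBV (adjusted p = 0.000441) and -0.75 ± 0.22 in EtOH against PF (adjusted p = 0.0133). Tdrd7, a tudor domain protein, fell in both as well, with -1.22 ± 0.21 (adjusted p = 0.000406) and -0.59 ± 0.21 (adjusted p = 0.0312). Apol9b, of the apolipoprotein L family, had 21.1, 14.2, 8.02 and 12.5 CPM in EtOH+MBV, 95.7, 32.1, 29.4 and 18.5 in EtOH, 46.5, 48.9, 37.9 and 56.5 in PF+MBV, and 38.7, 60.4, 36.6 and 44.1 in PF. It resembled Ifi44, with -1.76 ± 0.40 in EtOH+MBV against PF+MBV (adjusted p = 0.00315), and against EtOH -1.66 ± 0.40 with EtOH 1 (adjusted p = 0.0393) and -0.92 ± 0.26 without it (adjusted p = 0.104). Znfx1, a helicase that senses RNA at mitochondria, rose in EtOH+MBV against PF+MBV (0.78 ± 0.12, adjusted p = 0.000200). It was not called in EtOH against PF, with 0.14 ± 0.12 (adjusted p = 0.379) and 0.21 ± 0.12 without EtOH 1 (adjusted p = 0.164). In PF+MBV against PF it had -0.46 ± 0.12 (adjusted p = 0.0632), and -0.46 ± 0.11 without EtOH 1 (adjusted p = 0.0294).

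Levels of different genes were compared per kilobase of exon. On this scale Bst2 was the most abundant of the 34, with a mean over the 16 libraries of 90.3 CPM per kb, followed by Ifi27 at 33.3, Ifi35 at 12.5, Stat2 at 10.5, Dtx3l at 9.97 and Parp9 at 9.59. The lowest were Oas3 at 0.223, Mx1 at 0.350 and Ifi44 at 0.514 CPM per kb. Rsad2 was at 1.09 CPM per kb in EtOH+MBV, 18.5 in EtOH, 3.27 in PF+MBV and 2.12 in PF. The EtOH value rests on EtOH 1, which had 267 CPM against a mean of 18.0 CPM in EtOH 2 to 4. Besides Ifit3, Ifit3b and Oas1a, the genes that share the most sequence with another gene were Herc6 with 12.0% and Rtp4 with 11.6% of their 50-base stretches. Exons of Irf7 overlap those of Phrf1 by 45 bases on the opposite strand, and those of Irf9 overlap Rnf31 by 123 bases on the same strand.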

How the data were processed

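Liver RNA of 16 libraries in 4 groups of 4 was sequenced after polyA selection. Reads were trimmed with Trimmomatic and aligned with STAR to mm10, per the submitters' processing notes, with versions and settings not given here. The authors deposited whole-number read counts per gene for each library, in unstranded and stranded columns, and the unstranded counts were used because the stranded ones split evenly. STAR counts reads that align to a single place, so genes with close copies lose reads. Rows of unmapped, multimapped, ambiguous and no-feature reads were left out of library sizes.

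The counts were scaled by the trimmed mean of M-values (TMM) and tested with the quasi-likelihood test of edgeR 4.0.16 in R 4.3.3, on genes passing filterByExpr with a minimum count of 10, with a prior count of 2. All 4 groups entered a single model without covariates, and Benjamini-Hochberg adjustment ran over all genes with a limit of 0.05. Levels are CPM scaled by TMM. Alternatives were DESeq2 1.42.0 as size factors and as a test, limma 3.58.1 voom with sample weights, no filter, the compared groups alone, the repeat number as a block, and each library left out in turn. Code was tested on simulated counts with known changes. Sequences were read with Python 3.11.15 from RefSeq tables of build GRCm38.p6.

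The 34 genes and the other lists were chosen with earlier results of these data known. Values in every library were given for the 2 genes with the highest mean CPM in each role and for genes called in any comparison, with at most 3 more per role by smallest p. Pathway lists had at most 4 genes named, by smallest p. The values of 1 gene of these lists are not reported here. Genes of a count of 5 or fewer, and genes whose groups did not overlap, were named outside this rule after their values were seen.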

Additional observations from a re-analysis of the deposited data

Results flagged for a closer look

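For each of the 34 genes in each group of 4, the gap between the outermost library and its neighbour was divided by the range of the group on the log2 CPM scale. It passed Dixon's critical value for 4 samples in 13 of 136 groups. Chance alone flags about 1 in 20 groups that are independent. The 34 genes were read in the same libraries and are not independent, so the count of 13 cannot be judged against that rate. Of the 13, 8 were EtOH 1 standing above the other EtOH libraries. The ratio was 0.956 for Ifih1, 0.902 for Ifit2, 0.893 for Isg15, 0.866 for Oas1a, 0.86 for Trim30a, 0.855 for Rtp4, 0.847 for Irf7 and 0.843 for Mx1. The other 5 lay in other libraries. EtOH+MBV 1 was high for Ifit1 (0.947), EtOH+MBV 4 was low for Xaf1 (0.952) and high for Ifi27 (0.879), PF+MBV 2 was high for Isg15 (0.833), and PF 4 was low for Oas2 (0.889).

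The effect of MBV differed between the diets for Rsad2, with an interaction of -4.70 on the log2 scale, and for Cmpk2, with -3.29, by edgeR's quasi-likelihood test with all 16 libraries. Without EtOH 1 these were -2.54 and -1.76, and both passed the limit in either fit. With each of the 16 libraries left out in turn, the call was lost in 12 omissions for Cmpk2 and in 5 for Rsad2. Cmpk2 lies next to Rsad2 on chromosome 12. Markers of monocytes and of dividing cells were also highest in EtOH 1 among the 4 EtOH libraries, and their part was not tested.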

How the results depend on the processing

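Of the 48 log2 fold changes followed for single genes, all 48 under the DESeq2 size factors had the same direction and call. So did 45 under DESeq2 and 46 without a filter, 2 without a filter lost their call, and 0 reversed under these. The rest under DESeq2 received no label. In EtOH+MBV against PF+MBV DESeq2 did not call Irf7, which edgeR called lower. Unless said otherwise, the cause of a change was not tested.

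In EtOH against PF, voom with sample weights, which gives EtOH 1 the lowest weight, called 1 of the 34 higher and 7 lower, with a median of -0.34 over the 34. Of all genes it called 2518 higher and 2461 lower. The compared groups alone called 1 of the 34 higher, and 1928 of all genes. In EtOH+MBV against EtOH, DESeq2 called 1 of the 34 higher and 14 lower, and 362 and 530 of all genes. Voom called 1 of the 34 lower, and 70 and 73 of all genes, and the compared groups alone called 0 of the 34 lower, and 0 and 0 of all genes. In PF+MBV against PF, voom called 3 of the 34 higher and the compared groups alone 1. Over all genes DESeq2 called 283 and 362, voom 1226 and 1268, and the compared groups alone 539 and 580. In EtOH+MBV against PF+MBV, voom called 3514 of all genes lower. In the interaction the DESeq2 size factors, DESeq2 and voom each called 1 of the 34 higher, and DESeq2 called 10 and voom 7 lower. Over all genes DESeq2 called 535 and 562 and voom 712 and 698, and the median under voom was -0.77. The interaction has no fit of the compared groups alone, since it uses all 4.

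Log2 fold changes in EtOH against PF that reversed under voom were -0.53 for Irf7, -0.64 for Ifit2, -0.77 for Ifit3, -0.22 for Trim30a and -1.09 for Ifi44. With the replicate number as a block they were -0.055 for Irf7, -0.091 for Ifit2, -0.12 for Ifit3 and -0.019 for Ifi44. Libraries with the same number did not deviate together (r from -0.0879 to 0.155), and 3 of 16 correlated best with their own number, so the numbers were not taken as pairs. With the replicate block 1 of the 34 was higher in EtOH against PF, with 2460 of all genes higher. In EtOH+MBV against EtOH 1 was lower, with 97 of all genes lower, and in the interaction 4 were lower, with 264 of all genes lower.

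With each library left out in turn, the genes of the 34 called in EtOH against PF were 1 to 4 higher and 4 to 15 lower, with medians of -0.56 to 0.32, and 2138 to 2773 and 2130 to 2662 over all genes. In EtOH+MBV against EtOH they were 0 to 1 higher and 0 to 18 lower, with medians of -1.24 to -0.39, and 5 to 520 and 3 to 649 over all genes. In EtOH+MBV against PF+MBV 11 to 28 were lower, and 1543 to 2623 over all genes. In PF+MBV against PF 16 to 314 of all genes were higher and 29 to 375 lower. In the interaction 0 to 1 of the 34 were higher and 0 to 11 lower, with medians of -1.46 to -0.41, and 78 to 547 and 76 to 541 over all genes. In EtOH against PF the log2 fold change ran from -0.76 to 0.46 for Irf7, -1.32 to 0.074 for Ifit1, -0.81 to 0.35 for Ifit2, -1.02 to 0.43 for Ifit3 and -1.30 to 0.31 for Ifit3b. It ran from -0.40 to 0.25 for Trim30a, -1.20 to 0.96 for Ifi44 and -0.71 to 0.027 for Rtp4. Further omissions from the fit without EtOH 1 were chosen after seeing the data. Depth limits Mx1, Ifi44 and Ifit3b, whose levels lie under 1 CPM in every EtOH+MBV library.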
